A study of Mus musculus with 10 samples.

Results

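The genes described here are 8 mechanosensitive and acid-sensing channel genes and their partners, taken by symbol from the deposited count table: Piezo1 and Piezo2, the acid-sensing ion channel genes Asic1, Asic2, Asic3 and Asic4, and the accessory genes Stoml3 and Tmem120a. Each symbol matched 1 Ensembl gene, so the set holds 8 of the 40481 distinct genes in the table. The table comes from total RNA of C57BL/6 dorsal root ganglia (DRG), which house the sensory neurons of the body and limbs. Oxaliplatin, a platinum cancer drug that damages sensory nerves, is labelled as 10 mg/kg and in the design text as given for 8 weeks; 5 libraries come from these mice and 5 from mice given vehicle, all of RNA with an integrity number above 8. Strain and tissue were the same in both groups and the labels name no allele or transgene. The labels give no age, do not say how the 10 mg/kg was divided over the weeks, and do not state that each library came from its own mouse. The p-values therefore speak of the variation among these libraries, which may be partly technical.

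Piezo channels open when the membrane is stretched and pass cations. Piezo2 is the main channel of light touch and proprioception in DRG neurons, while Piezo1 is best known from endothelial and other non-neuronal cells. Acid-sensing ion channels (ASICs) are sodium-permeable channels of the degenerin family that open when the fluid outside the cell turns acid, and their subunits assemble in mixed complexes. In sensory neurons they are studied for the pain of inflamed or poorly perfused tissue.

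The libraries held 52963470 to 60984426 counts, and the precision of each value below follows from the gene's own count. The 12 sensory neuron markers summed to 18044 to 19383 CPM (counts scaled to a common library total, corrected for composition) after oxaliplatin and 19225 to 22199 CPM after vehicle, and none of the 12 was at 0. Of all genes, 18401 were tested by edgeR's quasi-likelihood method with a Benjamini-Hochberg adjusted p below 0.05 as the threshold. Oxaliplatin libraries were higher for 234 of them (1.27%) and lower for 142 (0.772%), or for 303 and 99 without a composition factor. The median log2 fold change of all tested genes was 0.0051. The axon injury genes Sprr1a and Atf3 were looked up after the values of the channel genes were seen. Sprr1a was at 1.25, 0.359, 0.137, 0.258 and 1.22 CPM in oxaliplatin replicates 1 to 5, against 9.28, 4.08, 1.29, 11.6 and 189 CPM in vehicle replicates 1 to 5. Every vehicle library lay above every oxaliplatin library, replicate 3 only just and replicate 5 by far. Of all tested genes, 1.77% were separate in this direction, and no other axon injury gene is given here. Atf3 was at 13.7, 8.32, 9.68, 13.7 and 9.23 CPM in oxaliplatin replicates 1 to 5, against 27.6, 25.8, 12.1, 32.4 and 176 CPM in vehicle replicates 1 to 5, where replicate 3 lay within the oxaliplatin range. The part of this difference in the channel gene values was not tested beyond leaving out vehicle replicate 5.

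No Piezo or ASIC gene passed the threshold in the test over all genes. Of the 8 genes, 6 had enough counts to be tested, and 0 of these 6 were higher and 0 lower in edgeR, where 2.04% of all tested genes were called. Asic1 came nearest, with a level 21.6% lower after oxaliplatin and an adjusted p of 0.0931. In bulk tissue, fewer cells of a type and less RNA per cell cannot be told apart. Asic1 was the 1 member with an unadjusted p below 0.05, a mark that 16.3% of all tested genes met. The other tools made 1 call among the 6, again Asic1: DESeq2, which called 5.01% of all tested genes, and limma voom with quality weights, which called 4.37%. At an edgeR adjusted p below 0.1, which 3.96% of tested genes met, Asic1 was again the 1 member. The groups overlapped for all 8 genes, while they were separate for 4.02% of tested genes, with oxaliplatin the lower group for 1.77%. The median log2 fold change of the 6 tested members was -0.06.

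**Figure D1:**
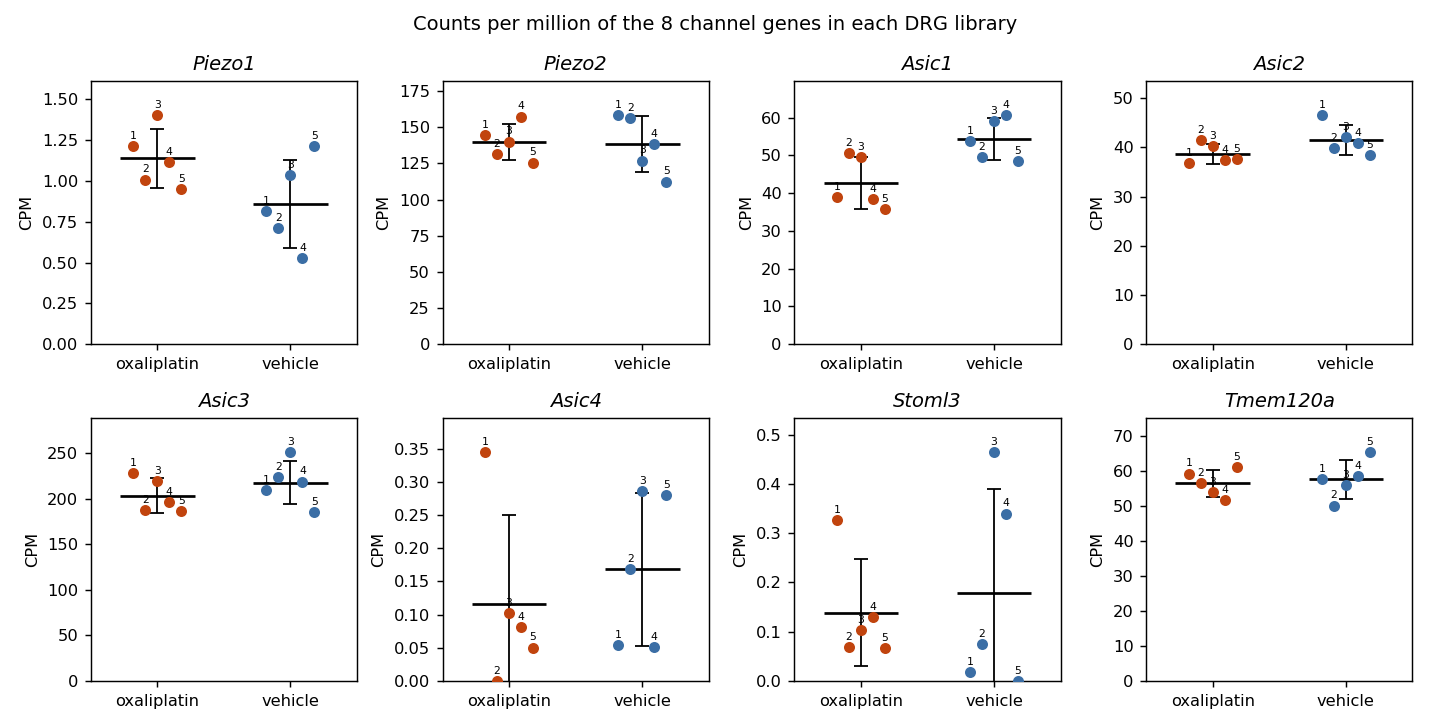
Level of each of the 8 genes in CPM (vertical axes, each from 0) in the 5 oxaliplatin libraries and the 5 vehicle libraries; points are libraries with their replicate number, lines and bars the mean ± SD. The 2 groups overlap in every panel, and for Asic1 the oxaliplatin replicates 1, 4 and 5 lie below every vehicle library.

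Set side by side per length, the 8 genes covered a wide range of levels. CPM was divided by the merged exon length in kb of GENCODE M21 (mouse assembly GRCm38). No source used here names the annotation behind the counts, so these levels are approximate. Asic3 was highest, at 83.9 ± 7.98 CPM per kb after oxaliplatin and 89.8 ± 9.82 CPM per kb after vehicle (SD, n = 5 each). Tmem120a followed at 32.6 ± 2.23 CPM per kb after oxaliplatin and 33.3 ± 3.18 CPM per kb after vehicle. In both groups every library of Asic3 lay above every library of Tmem120a.

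Asic2, Piezo2 and Asic1 formed a middle level. Asic2 averaged 9.08 ± 0.476 CPM per kb after oxaliplatin and 9.74 ± 0.725 CPM per kb after vehicle. Piezo2 averaged 8.14 ± 0.717 and 8.07 ± 1.13 CPM per kb after oxaliplatin and vehicle. Asic1 averaged 7.42 ± 1.20 CPM per kb after oxaliplatin and 9.46 ± 0.953 CPM per kb after vehicle. The ranges of these 3 genes overlapped within each group. Library by library, Asic2 lay above Asic1 in every oxaliplatin library but not in every vehicle library. Piezo2 had no fixed place among the 3 in either group. The order also turns on the length used. Divided by the longest coding transcript, Piezo2 came first of the 3 after oxaliplatin at 13.0 CPM per kb, ahead of Asic2 at 11.3 and Asic1 at 10.4. After vehicle Asic1 then came first at 13.2, ahead of Piezo2 at 12.9 and Asic2 at 12.1. Piezo2 has the longest exon set, 17162 bases in 56 merged exons, against 2423 bases in 9 exons for Asic3.

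The lowest levels were those of Piezo1, Stoml3 and Asic4. Piezo1 averaged 0.115 ± 0.018 CPM per kb after oxaliplatin and 0.0866 ± 0.0271 CPM per kb after vehicle. Stoml3 averaged 0.0645 ± 0.0503 and 0.0835 ± 0.0977 CPM per kb, and Asic4 0.0424 ± 0.049 and 0.0616 ± 0.0422 CPM per kb, after oxaliplatin and vehicle. These 3 genes overlapped with each other in both groups.

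**Figure D2:**
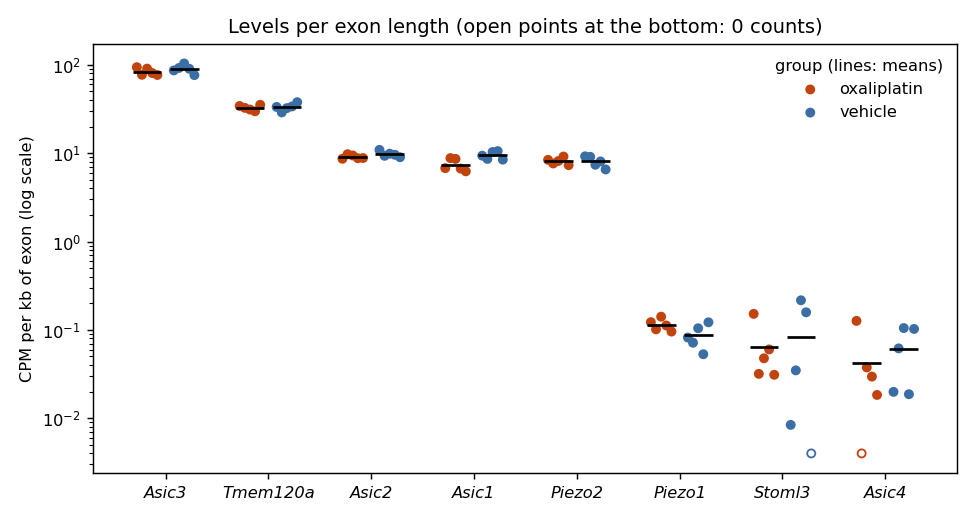
Level per exon length (CPM per kb, log scale) of the 8 genes in order of their vehicle mean; points are libraries, oxaliplatin to the left of vehicle, short lines are group means, and open points at the lower edge are libraries with 0 counts. Asic3 and Tmem120a lie above the middle level of Asic2, Asic1 and Piezo2, and Piezo1, Stoml3 and Asic4 lie far below it.

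The member that carries touch in DRG neurons, Piezo2 (ENSMUSG00000041482), was at nearly the same level in both groups. Its levels were 144, 131, 140.1, 157 and 126 CPM in oxaliplatin replicates 1 to 5, against 158, 156, 127, 138 and 112 CPM in vehicle replicates 1 to 5. The oxaliplatin libraries all lay within the range of the vehicle libraries, whose lowest was replicate 5. The means were 139.7 ± 12.3 CPM after oxaliplatin and 138 ± 19.5 CPM after vehicle (SD, n = 5 each). On the log2 scale the difference was 0.01 ± 0.09 (SE; edgeR adjusted p = 0.964), with a 95% interval from -11.6% to 15.2% in level. Leaving out vehicle replicate 5 put the estimate at -0.05 (edgeR adjusted p = 0.823).

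Piezo1 (ENSMUSG00000014444) was read only 57 to 82 times per library after oxaliplatin and 31 to 65 times after vehicle. In CPM the levels were 1.22, 1.01, 1.40, 1.11 and 0.951 in oxaliplatin replicates 1 to 5, against 0.814, 0.711, 1.04, 0.527 and 1.21 in vehicle replicates 1 to 5. All 5 oxaliplatin libraries lay above the vehicle median, while 2 of them lay above every vehicle library, so the groups overlapped. Its log2 fold change was 0.40 ± 0.26 (edgeR adjusted p = 0.477), with a 95% interval in fold of 0.905 to 1.94. At this depth a rise of up to that upper bound was not distinguishable from no change. With 1 library left out, the estimate ran from 0.27 without vehicle replicate 4 (edgeR adjusted p = 0.718) to 0.56 without vehicle replicate 5 (0.339).

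Endothelial markers were read beside it. Of 8 endothelial markers 2 rose and 0 fell (edgeR), at a median log2 fold change of 0.11. Pecam1, an adhesion molecule of the vessel wall, rose by 0.98 ± 0.18 on the log2 scale (21.9 ± 6.00 CPM after oxaliplatin and 11.1 ± 1.83 CPM after vehicle, edgeR adjusted p = 0.0164) and Cdh5, the cadherin of endothelial junctions, by 0.69 ± 0.17 (8.22 ± 1.31 and 5.09 ± 1.32 CPM, edgeR adjusted p = 0.0480). Left out 1 library at a time, Cdh5 kept its call in 3 of 10 fits, those without oxaliplatin replicate 2 or vehicle replicate 2 or 5 (edgeR adjusted p up to 0.147 in the others), and Pecam1 lost it in 1, without oxaliplatin replicate 4 (0.0504). The 8 markers summed to 115 to 136 CPM after oxaliplatin and 97.7 to 134 CPM after vehicle, and none was at 0. The part of endothelial cells in the Piezo1 value was not tested.

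Piezo1 also shares sequence with a neighbour. In GENCODE M21, 2441 of its 9935 exonic bases (24.6%) are also exonic in Ctu2, a tRNA-modifying enzyme gene on the opposite strand, and the sources used here do not state whether reads were counted by strand. Ctu2 had 520 to 884 counts after oxaliplatin and 470 to 704 after vehicle, more than Piezo1 in every library, with a log2 fold change of 0.09 ± 0.14 (edgeR adjusted p = 0.830). How much of the Piezo1 count this overlap touches was not tested.

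Both accessory genes have been tied to Piezo currents in mice. Stoml3, a stomatin-like membrane protein that raises the sensitivity of Piezo channels, was close to the limit of detection and was not tested. It had 18, 4, 6, 8 and 4 counts in oxaliplatin replicates 1 to 5, against 1, 4, 26, 20 and 0 counts in vehicle replicates 1 to 5. The high libraries were oxaliplatin replicate 1 and vehicle replicates 3 and 4, and the 0 in vehicle replicate 5 allows a level of up to 0.0559 CPM (3 counts, counting error only). Without the filter on low counts its log2 fold change was -0.38 ± 0.82 (edgeR adjusted p = 0.888), with a 95% interval in fold of 0.241 to 2.47, too wide to show a change of either sign.

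Tmem120a (ENSMUSG00000039886), which codes for the membrane protein TACAN, first described as a mechanosensitive channel of nociceptors and later as an inhibitor of Piezo2, had 59.2, 56.4, 54.0, 51.5 and 61.1 CPM in oxaliplatin replicates 1 to 5. Vehicle replicates 1 to 5 had 57.8, 50.1, 56.0, 58.5 and 65.4 CPM. The oxaliplatin libraries lay within the range of the vehicle libraries, and the highest of all was vehicle replicate 5. Its log2 fold change was -0.03 ± 0.08 (edgeR adjusted p = 0.907), with a 95% interval from -12.3% to 9.68%.

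Among the ASICs, Asic1 (ENSMUSG00000023017) codes for a subunit that forms acid-gated channels on its own and is found in central as well as sensory neurons. Its levels were 38.8, 50.5, 49.5, 38.4 and 35.8 CPM in oxaliplatin replicates 1 to 5, against 53.8, 49.4, 59.2, 60.6 and 48.6 CPM in vehicle replicates 1 to 5. Oxaliplatin replicates 1, 4 and 5 lay below every vehicle library, and replicates 2 and 3 lay within the lower part of the vehicle range. All 5 oxaliplatin libraries were below the vehicle median. The means were 42.6 ± 6.86 CPM after oxaliplatin and 54.3 ± 5.47 CPM after vehicle (SD, n = 5 each).

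The log2 fold change of Asic1 was -0.35 ± 0.10, with a 95% interval from -32.5% to -8.83% in level that is not adjusted for the number of genes. With an edgeR adjusted p of 0.0931 it did not pass the threshold of 0.05. It passed in 4 of 20 alternatives: DESeq2 (adjusted p = 0.0313), limma voom with quality weights (0.0222), edgeR with the replicate number as a block (0.0350, in a fit that called 3.59% of all tested genes) and edgeR without oxaliplatin replicate 2 (0.0322). When 1 library was left out, the edgeR adjusted p ran from 0.0322 to 0.231 and passed in 1 of 10 fits. The log2 fold change was below 0 in all 21 settings, from -0.43 to -0.29, and was -0.31 with the level of the neuron markers as a covariate (edgeR adjusted p = 0.146, in a fit that called 3.11%). Among all tested genes, 7.12% had a lower log2 fold change than Asic1 and 3.73% a p as small or smaller.

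**Figure D3:**
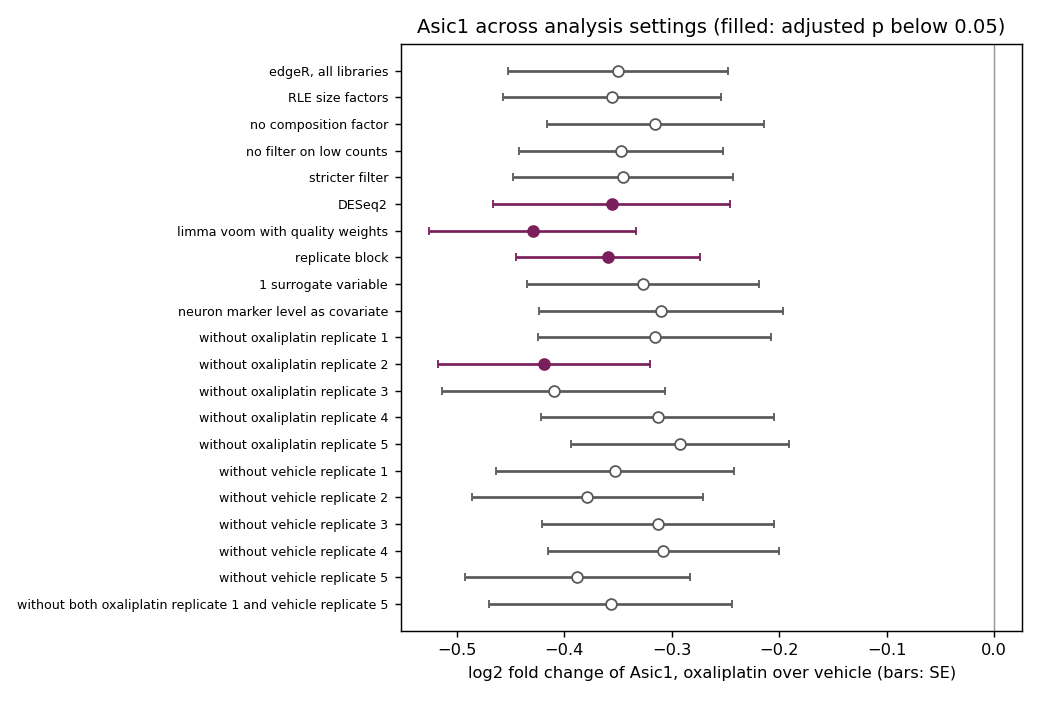
Log2 fold change of Asic1, oxaliplatin over vehicle (horizontal axis), with its SE in the edgeR test and each of 20 alternatives; filled points have an adjusted p below 0.05. All 21 points lie below 0, between -0.43 and -0.29, and 4 are filled.

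Asic3 (ENSMUSG00000038276), the subunit most closely tied to sensory neurons and to acid pain from muscle and heart, was the most abundant member. It had 228, 187, 219.6, 196 and 186 CPM in oxaliplatin replicates 1 to 5, against 209.6, 223, 251, 219 and 185 CPM in vehicle replicates 1 to 5. The oxaliplatin libraries lay within the vehicle range, which ran from replicate 5 at the bottom to replicate 3 at the top. Its log2 fold change was -0.10 ± 0.08 (edgeR adjusted p = 0.595), with a 95% interval from -16.9% to 4.99%. Leaving out vehicle replicate 3 gave -0.036 and leaving out vehicle replicate 5 gave -0.15. With the neuron marker level as a covariate it was -0.0045 (edgeR adjusted p = 0.981).

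Asic2 (ENSMUSG00000020704), whose subunits shape the acid response of mixed channels, had 36.9, 41.5, 40.2, 37.4 and 37.6 CPM in oxaliplatin replicates 1 to 5, against 46.5, 39.8, 42.1, 40.9 and 38.4 CPM in vehicle replicates 1 to 5. Of the oxaliplatin libraries 3 lay below every vehicle library and 2 lay among them. The estimated log2 fold change was -0.10 ± 0.07 (edgeR adjusted p = 0.524), with a 95% interval from -16.0% to 3.47%. It was -0.057 without vehicle replicate 1 (edgeR adjusted p = 0.763). Asic1 and Asic2 each have transcripts from separate start sites that code for different subunit variants, and counts per gene do not separate them.

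Asic4 (ENSMUSG00000033007), whose protein gives little or no acid-gated current of its own, had 19, 0, 6, 5 and 3 counts in oxaliplatin replicates 1 to 5, against 3, 9, 16, 3 and 15 counts in vehicle replicates 1 to 5. It was not tested, and the groups overlapped over nearly their whole range. The 0 in oxaliplatin replicate 2 allows up to 0.0513 CPM. Without the filter on low counts its log2 fold change was -0.53 ± 0.80 (edgeR adjusted p = 0.820), with a 95% interval in fold of 0.225 to 2.12. In GENCODE M21, 493 of its exonic bases (18.1%) are also exonic in Gm37264 on the opposite strand, a gene with no row in the deposited counts. How much of the Asic4 count this overlap touches was not tested.

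Taken per exon length, Asic3 made up most of the ASIC transcripts. Its share was 80.6 to 85.8% after oxaliplatin and 81.0 to 83.7% after vehicle. Asic2 held 7.89 to 10.2% after oxaliplatin and 7.97 to 10.2% after vehicle. Asic1 held 6.17 to 9.20% after oxaliplatin, with a median of 6.95%, and 7.82 to 9.56% after vehicle, with a median of 8.78%. Asic4 stayed at or below 0.115% in every library.

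**Figure D4:**
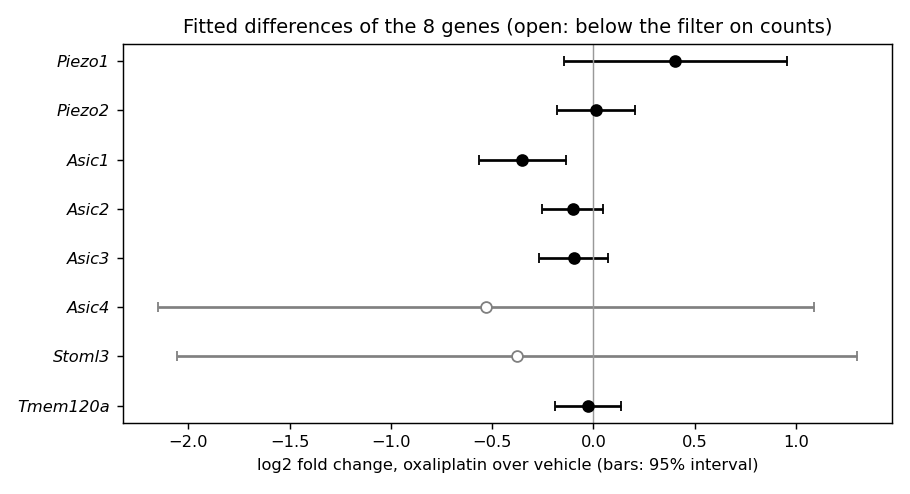
Log2 fold change of the 8 genes, oxaliplatin over vehicle, with 95% intervals; open grey points are the 2 genes below the filter on low counts, from the fit without that filter. The intervals are not adjusted for the number of genes; of the 6 tested genes that of Asic1 lies below 0 and the other 5 span 0.

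Ratios of 2 members within a library depend on library scaling only through the prior count, which weighs most on genes of few counts. The groups were compared in 5 such pairs (two-sided exact permutation test over libraries, smallest p possible 0.00794, Benjamini-Hochberg over the 5 pairs). None passed 0.05 after adjustment. The log2 ratio of Asic2 to Asic1 was -0.12 ± 0.16 after oxaliplatin and -0.38 ± 0.14 after vehicle (SD, n = 5 each). Its difference of 0.26 had an exact permutation p of 0.0397, or 0.198 adjusted, and 3 of 5 oxaliplatin libraries lay above every vehicle library. The log2 ratio of Asic3 to Asic1 was 2.26 ± 0.25 after oxaliplatin and 2.0 ± 0.13 after vehicle, a difference of 0.26 (exact permutation p = 0.0873, adjusted 0.218). Both pairs share Asic1, so they are not independent of each other.

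The ratio of Piezo2 to Piezo1 varied more among vehicle libraries than among oxaliplatin libraries. On the log2 scale it was 6.90 ± 0.19 after oxaliplatin and 7.32 ± 0.60 after vehicle, a difference of -0.41 (exact permutation p = 0.183, adjusted 0.304). Without vehicle replicate 5 the difference was -0.62 and without vehicle replicate 4 it was -0.25 (exact permutation p = 0.0476 and 0.381, adjusted 0.159 and 0.635). Tmem120a over Piezo2 was at -1.31 ± 0.21 after oxaliplatin and -1.26 ± 0.32 after vehicle, a difference of -0.05 (exact permutation p = 0.802, adjusted 0.857). Stoml3 over Piezo2 differed by 0.21 at a prior count of 2 (exact permutation p = 0.857, adjusted 0.857) and by 0.62 at a prior count of 0.5 (exact permutation p = 0.563, adjusted 0.704). The fitted log2 fold change of Stoml3 itself, -0.38, had the opposite sign, so no direction can be read for this pair.

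**Figure D5:**
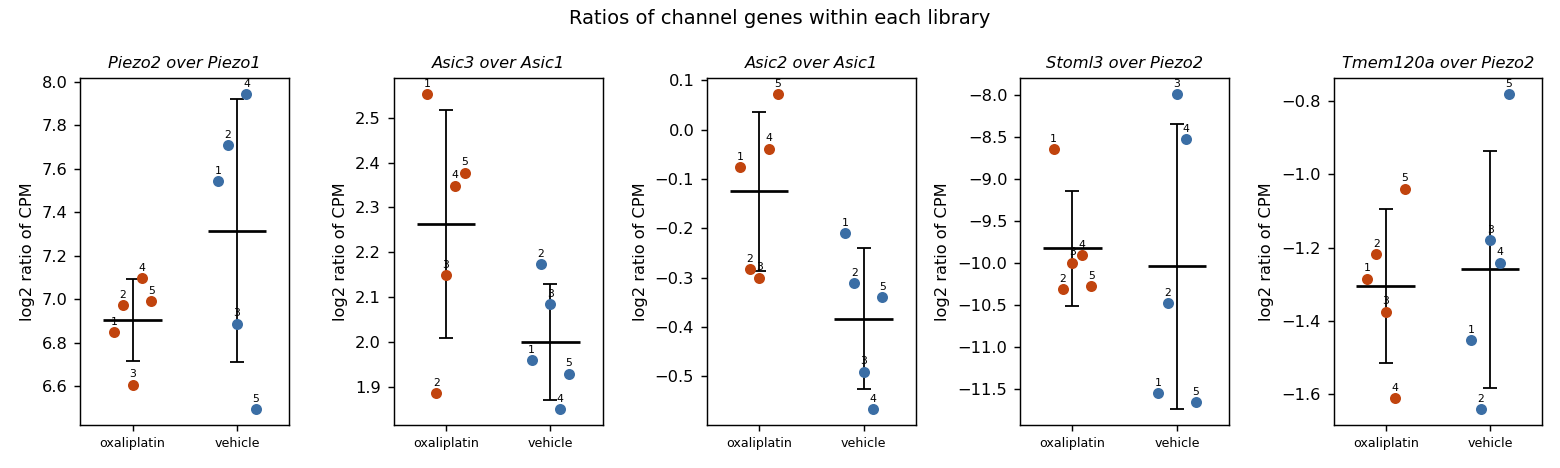
Log2 ratio of CPM of 2 members within each library, for 5 pairs, oxaliplatin left of vehicle; points are libraries with their replicate number, lines and bars mean ± SD. The groups overlap in all 5 panels, and oxaliplatin replicates 1, 4 and 5 lie above every vehicle library in the panels of Asic3 and Asic2 over Asic1.

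The members also differed in how far libraries of 1 group spread. The coefficient of variation of CPM was lowest for Asic2, 5.24% after oxaliplatin and 7.44% after vehicle, and for Tmem120a, 6.83% and 9.55%. Asic1 was at 16.1% after oxaliplatin and 10.1% after vehicle, Piezo2 at 8.80% and 14.1%, and Piezo1 at 15.7% and 31.3%. The biological coefficient of variation over all tested genes was 19.3%. It leaves out counting error, which the values of the members include, so they cannot be set directly against it. The genes lie apart in the genome: Asic3 and Tmem120a are both on chromosome 5, and the other 6 members are on 6 different chromosomes.

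Other genes around these channels were read from lists written down for this work. Of 14 tested Piezo partners and candidate mechanosensitive channels, 0 passed in either direction (edgeR; 2 had an unadjusted p below 0.05), at a median log2 fold change of -0.00024. Tmem150c, which codes for tentonin 3, a protein linked to slowly adapting mechanical currents, was at 77.6 ± 6.73 CPM after oxaliplatin and 90.1 ± 4.21 CPM after vehicle. Its edgeR adjusted p was 0.113, and it was the 1 call of limma voom in this list, while DESeq2 made 0. Tmem63c, of a family of channels opened by membrane tension, was at 56.1 ± 5.08 CPM after oxaliplatin and 64.0 ± 6.49 CPM after vehicle (edgeR adjusted p = 0.271). Stom, which codes for stomatin, a relative of Stoml3, was at 39.2 ± 1.40 CPM after oxaliplatin and 45.8 ± 11.4 CPM after vehicle (edgeR adjusted p = 0.429).

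Of 8 tested genes for other degenerin channels and ASIC regulators, 0 passed (edgeR; 4 with an unadjusted p below 0.05, median 0.03), and DESeq2 and limma voom each called 1, Sgk1. Sgk1, a kinase that keeps the related epithelial sodium channel at the surface, was at 113 ± 25.9 CPM after oxaliplatin and 61.8 ± 20.1 CPM after vehicle (edgeR adjusted p = 0.127). It passed in edgeR when vehicle replicate 5 was left out. Fits that left out another library are not given for Sgk1. Lin7b, a scaffold protein that binds ASIC3, was at 20.2 ± 3.79 CPM after oxaliplatin and 25.6 ± 2.58 CPM after vehicle (edgeR adjusted p = 0.149). Asic5, the remaining gene of the ASIC name, had 0 counts in all 10 libraries, which allows up to 0.0484 to 0.0561 CPM per library.

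Acid sensors outside the ASIC family had 0 of 8 tested genes past the threshold (edgeR; 2 with an unadjusted p below 0.05, median 0.09), 1 in DESeq2 and 0 in limma voom. Gpr65, a proton-sensing receptor of leukocytes and the DESeq2 call, was at 0.918 ± 0.282 CPM after oxaliplatin and 1.69 ± 0.459 CPM after vehicle (edgeR adjusted p = 0.108). Gpr4, a proton-sensing receptor of endothelium, was at 2.86 ± 0.931 CPM after oxaliplatin and 2.06 ± 0.415 CPM after vehicle (edgeR adjusted p = 0.304). The capsaicin receptor Trpv1, which protons also open, was at 219 and 201 CPM in oxaliplatin and vehicle libraries, a log2 fold change of 0.13 ± 0.08 (edgeR adjusted p = 0.443).

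Markers of the neurons that carry these channels mostly did not pass. Of 13 tested markers of low-threshold mechanoreceptors and proprioceptors 0 rose and 1 fell, at a median of -0.07. Nefh, the heavy neurofilament of large axons, fell by 0.63 ± 0.13 on the log2 scale (322 ± 49.6 CPM after oxaliplatin and 499 ± 85.4 CPM after vehicle, edgeR adjusted p = 0.0400). It kept its call in 3 of 10 fits without 1 library, those without oxaliplatin replicate 2 or 3 or vehicle replicate 2 (adjusted p up to 0.0924 in the others). Slc17a7, a vesicular glutamate transporter, was at 15.3 ± 1.88 CPM after oxaliplatin and 18.3 ± 4.01 CPM after vehicle (edgeR adjusted p = 0.387).

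Of 12 nociceptor markers 0 passed (edgeR; 2 with an unadjusted p below 0.05, median 0.0022). Mrgprb4 is in this list although it is a receptor of stroking-sensitive fibres in mice, so its value does not speak for nociceptors. It was at 9.40 ± 1.48 CPM after oxaliplatin and 5.08 ± 2.03 CPM after vehicle (edgeR adjusted p = 0.139). DESeq2, limma voom and edgeR without vehicle replicate 5 called it, and fits that left out another library are not given for it. Calca, the gene of the neuropeptide CGRP, was at 3844 ± 541 CPM after oxaliplatin and 4587 ± 552 CPM after vehicle (edgeR adjusted p = 0.213). Of the 12 markers of sensory neurons as a whole 0 passed (edgeR; 3 with an unadjusted p below 0.05, median -0.02, 0 calls in DESeq2 and 1, Stmn2, in limma voom). Stmn2, a microtubule regulator of growing axons, was at 2535 ± 79.0 CPM after oxaliplatin and 2900 ± 236 CPM after vehicle (edgeR adjusted p = 0.0919), and Tubb3, the neuronal tubulin, at 8167 ± 627 and 9412 ± 729 CPM (edgeR adjusted p = 0.113). Beside the fold of 0.784 for Asic1, the neuron markers summed to a mean of 18805 CPM after oxaliplatin and 20457 CPM after vehicle. This sum is weighted to abundant markers, above all Tubb3. Of the 12 markers, 7 had a log2 fold change below 0 and 5 above 0. The part of neuron content in the Asic1 value was not tested beyond the fit with the mean log2 CPM of these markers as a covariate.

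Markers of other cells of the ganglion were read from the same fit. Of 6 satellite glia markers 2 rose and 1 fell (median 0.06), and DESeq2 and limma voom each also called Kcnj10, a glial potassium channel gene, lower (12.3 ± 1.58 CPM after oxaliplatin and 16.3 ± 3.19 CPM after vehicle, edgeR adjusted p = 0.121). Glul, which makes glutamine from glutamate, averaged 144 ± 16.3 CPM after oxaliplatin and 110 ± 9.21 CPM after vehicle (edgeR adjusted p = 0.0223), and lost its call in 4 fits that left out 1 library, oxaliplatin 4 or 5 or vehicle 1 or 4 (up to 0.0733). Aldoc, a glycolytic aldolase, averaged 584 ± 102 and 394 ± 41.7 CPM after oxaliplatin and vehicle (edgeR adjusted p = 0.0298), and kept its call without oxaliplatin replicate 1 or 2 or vehicle replicate 3 (up to 0.0910 in the other 7 fits). Fabp7, a fatty acid binding protein, averaged 130 ± 34.3 and 256 ± 36.5 CPM (edgeR adjusted p = 0.0298), and kept its call without oxaliplatin replicate 2 or 5 or vehicle replicate 2 (up to 0.0779 in the other 7). Of 6 fibroblast markers 1 rose (median -0.07): Pdgfra, a growth factor receptor, averaged 9.11 ± 1.19 CPM after oxaliplatin and 5.94 ± 1.01 CPM after vehicle (edgeR adjusted p = 0.0266), and kept its call without oxaliplatin replicate 2 or vehicle replicate 2 or 5 (up to 0.0858 in the other 7). The collagen-binding proteoglycan Dcn was at 767 ± 92.2 CPM after oxaliplatin and 553 ± 97.9 CPM after vehicle, with an edgeR adjusted p of 0.0710, and was called by DESeq2 and limma voom. None of 7 Schwann cell, 7 macrophage, 6 erythroid, 5 muscle and 4 adipocyte markers tested passed in edgeR, with 1, 2, 0, 0 and 1 at an unadjusted p below 0.05 and medians of 0.11, -0.13, -0.53, -0.93 and 2.44. The smallest adjusted p of each list were those of Mbp (0.247), Aif1 (0.0537), Hba-a2 (0.753), Myh4 (0.590) and Cfd (0.247), and the next those of Prx (0.346), Csf1r (0.124), Hbb-bs (0.769), Mylpf (0.730) and Retn (0.311). DESeq2 called 2 of the macrophage markers, Csf1r and Aif1, and none of the other 4 lists, and limma voom none of the 5. Erythroid markers summed to 9.62 to 696 CPM after oxaliplatin and 138 to 439 CPM after vehicle, muscle markers to 9.52 to 695 and 95.1 to 475 CPM, and adipocyte markers to 15.6 to 635 and 7.78 to 32.2 CPM. The groups overlapped in each of these sums, so the medians of these lists are not shifts of every library. After oxaliplatin, Cfd was at 108 ± 195 CPM (range 9.93 to 457) and Myh4 at 9.65 ± 19.9 CPM (range 0.496 to 45.3). The part of all these cell types in the channel gene values was not tested.

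For each tested member, the genes whose library-to-library pattern was most like it were looked up among 12252 named genes with a mean of at least 2 CPM. The measure was the correlation of log2 CPM over the 10 libraries after subtraction of group means, given as Pearson's r and Spearman's rho. These are the highest of 12252 values each, over libraries that share their scaling, and so describe these libraries only and carry no p. For Piezo2 they were Opa1, which fuses mitochondrial inner membranes (r = 0.98, rho = 0.99), and Sh3bgrl2 (r = 0.97, rho = 0.94). For Asic3 they were Eno2, the neuronal enolase (r = 0.95, rho = 0.95), and Fam13a (r = 0.95, rho = 0.98). For Asic1 they were Rab3c, a GTPase of synaptic vesicles (r = 0.96, rho = 0.94), and Pnma1 (r = 0.95, rho = 0.88). For Tmem120a they were Farsa, a subunit of a tRNA synthetase (r = 0.97, rho = 0.96), and Pomc (r = 0.92, rho = 0.92). For Asic2 they were Tmem123 (r = 0.91, rho = 0.92) and B3galnt2 (r = 0.91, rho = 0.89), and for Piezo1 Bcdin3d (r = 0.93, rho = 0.79) and Pmvk (r = 0.91, rho = 0.84). None of these 12 genes passed the threshold between the groups, and the lowest edgeR adjusted p among them was 0.0530, for Pmvk.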

How the data were processed

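Per the labels' protocols, RNAlater-stored ganglia gave bead-extracted RNA for SMARTer libraries. The authors deposited raw counts, 1 row per Ensembl gene and 1 column per library. The submitters' processing notes list DESeq2, Partek and STAR 2.5.1a without saying what each did; no source used here names the genome build, the counting step or the strand handling. Of 40757 rows, 276 that repeated an ID with identical counts were dropped. Libraries of the same group all differed beyond counting error (chi-square 12.0 to 49.3 times its degrees of freedom).

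The count test was edgeR 4.0.16 (R 4.3.3): filterByExpr, TMM factors, robust quasi-likelihood fits, no covariate, Benjamini-Hochberg adjustment over 18401 genes, threshold 0.05. The SE of a log2 fold change was taken from its F statistic. CPM use TMM-scaled totals, and log2 CPM a prior count of 2. The test was tested on simulated counts. Alternatives were RLE factors, no factor, no filter, 1 CPM in 5 libraries, DESeq2 1.42.0, limma 3.58.1 voom with quality weights, the replicate block, 1 surrogate variable (sva 3.50.0), the neuron marker mean as a covariate, a threshold of 0.1, and left-out libraries. Genes named from a list are those past the threshold and the 2 of smallest p; Stom, Trpv1, Asic5, Ctu2, Kcnj10, Sprr1a and Atf3 were named after their values were seen. The members and lists were chosen with earlier results of these data known.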

Additional observations from a re-analysis of the deposited data

Results flagged for a closer look

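Stoml3 stood at 0.327 CPM in oxaliplatin replicate 1, from 18 counts, far above the other 4 oxaliplatin libraries, whose highest was 0.129 CPM, when its gap to them is set against the range of the group (Dixon's test at 95%). It was the 1 group flagged of 16 (8 genes in 2 groups). Chance flags about 1 in 20 groups if values are normally distributed, which cannot be assumed for counts this low. In the vehicle group 2 libraries lay higher still, at 0.465 and 0.340 CPM.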

How the results depend on the processing

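Asic1 was the member whose call depended on the setting, and the cause was not tested. The number of members past the threshold on the lower side was 0 in edgeR and 1 (Asic1) with DESeq2, with limma voom, with the replicate block and at a threshold of 0.1; it ran from 0 to 1 when 1 library was left out, and the number on the higher side was 0 throughout. The other 5 tested members had 0 calls in 100 gene-by-setting fits, with a lowest adjusted p of 0.195. Over all genes the higher and lower counts, 234 and 142, were 516 and 406 with DESeq2, 439 and 365 with limma voom, 382 and 278 with the replicate block, 292 and 280 with the neuron covariate, 424 and 304 at a threshold of 0.1, 142 and 76 when oxaliplatin replicate 1 and vehicle replicate 5 were both left out, and 79 to 343 and 34 to 251 when 1 library was left out.

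Values near 0 changed sign without passing. The log2 fold change of Piezo2 was -0.0067 with limma voom, -0.072 with 1 surrogate variable, -0.065 without both libraries, and -0.052 to 0.067 when 1 library was left out. That of Tmem120a was 0.0072 without a composition factor, 0.016 with 1 surrogate variable, 0.0043 without both libraries, and -0.071 to 0.023 with 1 left out. Without both libraries the log2 ratio difference was -0.49 for Stoml3 over Piezo2 and 0.069 for Tmem120a over Piezo2, and with 1 left out they ran from -0.19 to 0.72 and from -0.14 to 0.074. With 1 library left out, the log2 ratio difference of Piezo2 over Piezo1 ran from -0.62 to -0.25. That of Asic3 over Asic1 ran from 0.19 to 0.36 and that of Asic2 over Asic1 from 0.21 to 0.30. The log2 fold changes then ran from 0.27 to 0.56 for Piezo1, -0.13 to -0.057 for Asic2 and -0.15 to -0.036 for Asic3. A prior count of 0.5 moved the difference of Stoml3 over Piezo2 to 0.62. The differences between groups in the log2 ratios of Asic2 and Asic3 to Asic1 stayed above 0 in all alternatives run. That of Piezo2 to Piezo1 stayed below 0, and none of the 5 pairs passed after adjustment in any. Without both libraries the exact test has fewer splits and a higher smallest p, so it had little room to pass.

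The replicate numbers are shared by the groups, but the labels do not say that they pair animals. Deviations from the group means correlated at -0.04 to 0.21 between libraries of the same number. For oxaliplatin replicates 1, 3 and 5 the most correlated vehicle library was the one of the same number, and for replicates 2 and 4 it was another. As not every pair was above 0.1, the block was not taken as a pairing, and whether the numbers pair animals is not known. A paired sign-flip test of the 5 ratios with the replicate block cannot go below 0.0625 and so cannot pass. Depth limits Stoml3, Asic4 and Piezo1, which had at most 26, 19 and 82 counts in any library.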

Other observations

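Vehicle replicate 5, the library with the highest levels of the axon injury genes Sprr1a and Atf3, was also at an extreme of several channel genes. It was the lowest of all 10 libraries for Piezo2 (112 CPM) and Asic3 (185 CPM), had 0 counts of Stoml3, and was the highest for Tmem120a (65.4 CPM). For Asic1 and Asic2 it was the lowest only among the vehicle libraries, at 48.6 and 38.4 CPM, and for Piezo1 the highest among them, at 1.21 CPM. For Asic4, at 0.280 CPM, it was at neither end. Its neuron markers summed to 20836 CPM, inside the range of the other 9 libraries (18044 to 22199 CPM). Its endothelial markers summed to 134 CPM, also inside the range of the other 9 (97.7 to 136 CPM) but above the other 4 vehicle libraries (97.7 to 108 CPM). Without this library the log2 fold change of Asic1 was -0.39 (edgeR adjusted p = 0.0782), that of Asic3 -0.15 and that of Piezo1 0.56 (0.339). Other vehicle libraries moved these estimates the other way: Asic3 was at -0.036 without replicate 3, and Piezo1 at 0.27 without replicate 4. The pattern was noticed in the values of 1 library and was not tested.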
